A study of Mus musculus with 6 samples.

Results

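The unfolded protein and amino acid stress genes are a list of 38 genes, named for their place in the endoplasmic reticulum (ER) stress response and in the pathway of the transcription factor Atf4. All 38 were measured, of 19938 genes in all. They were chosen by name, though with earlier results of these data known. Expression was measured on 6 arrays of lung buds dissected from mouse embryos at E11.5. The 3 control samples carried Shhcre, which drives Cre recombinase from the Shh locus and so in the lung epithelium. In the 3 DKO samples (genotype Shhcre:Hdac1fl/fl; Hdac2 fl/fl) the same Cre met floxed copies of Hdac1 and Hdac2, which encode histone deacetylases. Every sample, controls included, therefore carried Shhcre. The strain, given as C57BL/6 and 129X1,129S1, was shared by both groups. The comparison bears on gene expression in the early lung of embryos with this genotype. Samples are labelled biological replicates, but whether embryos were pooled is not given, and p-values here reflect only how these samples differ among themselves, which may be partly technical.

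Proteins bound for the cell surface or for secretion fold in the ER. When unfolded proteins build up there, the sensors Ern1, Eif2ak3 and Atf6 signal to the nucleus: Ern1 splices the Xbp1 mRNA, Atf6 is cut to release a transcription factor, and Eif2ak3 phosphorylates the translation factor eIF2 alpha, which slows protein synthesis while the Atf4 mRNA is translated more. Xbp1 and Atf6 activate genes for chaperones and for ER-associated degradation, and Atf4 activates genes of amino acid synthesis and uptake, also when amino acids are short. Much of this control acts on splicing, cleavage and translation, which the level of an mRNA on an array does not show.

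In the DKO buds the module as a whole moved little. Sel1l, the adaptor of the ER degradation machinery, was the 1 member of 38 that rose (1.22-fold, or 0.28 in log2, SE 0.05, 3 samples in each group, limma adjusted p = 0.0207), and 0 members fell. Over all genes tested 1.03% rose and 1.38% fell. Asns, the enzyme that makes asparagine, came closest otherwise (0.27, SE 0.06, adjusted p = 0.0640). All 14 chaperones and folding enzymes had values above 0, by 0.05 to 0.25, and 0 of them passed. Changes of the 38 members ran from -0.19 to 0.28 with a median of 0.063, against a median of 0.00 over all genes. Of the 38, 27 (71.1%) lay above 0, against 50.2% of all genes. At an unadjusted p under 0.05, 8 members were higher and 2 lower, while 6.00% of all genes were higher and 6.83% lower at that level. The DKO values lay entirely above the control values for 8 members and entirely below for 2, against 8.36% and 10.4% of all genes. The 95% confidence interval of the change lay within 1.25-fold in either direction for 31 of the 38, against 17436 of all 19938 genes. Changes here are log2 values of DKO minus control, and the threshold is an adjusted p under 0.05 over all 19938 genes. Levels are normalised log2 values.

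**Figure D1:**
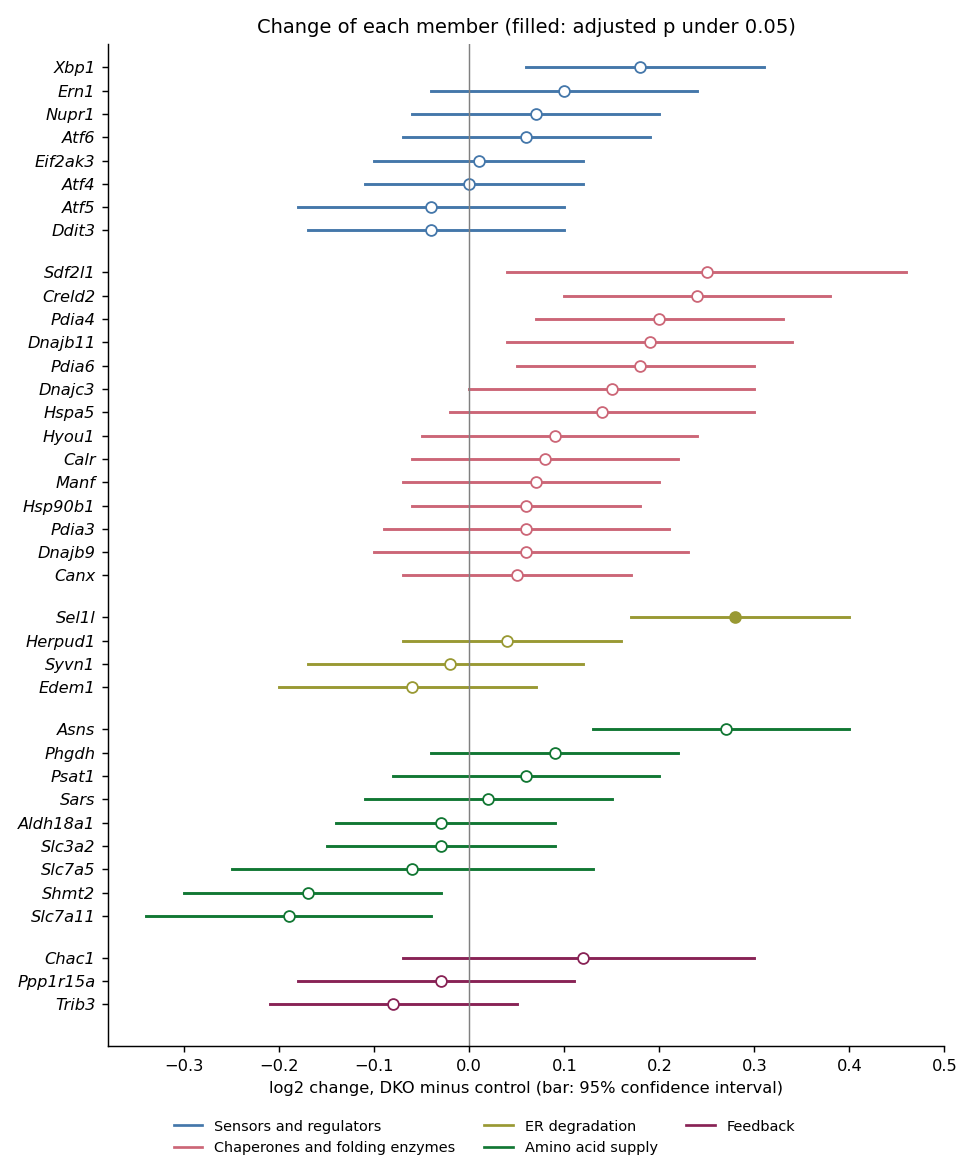
Log2 change (DKO minus control) of the 38 members, with the members on the vertical axis grouped by role and the 95% confidence interval as a bar. The 1 filled point is Sel1l (0.28), and all 14 chaperones and folding enzymes lie to the right of 0.

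The single call depended on which arrays entered: Sel1l passed without DKO 1 (adjusted p = 0.0499) and without DKO 2 (0.0221), but no longer passed when control 1, 2 or 3 was left out (adjusted p = 0.115, 0.0728 and 0.112), nor without DKO 3 (0.0550) and when p-values were adjusted over all probes (0.0716), at changes of 0.27 to 0.30. With array weights, which give a noisier array less say, limma called 9 members higher and 1 lower, but then also 1006 genes higher and 997 lower over the whole table. An intensity trend called 4 members higher, without the dimmest 30% of genes it was 2, and without DKO 2 it was also 2, Sel1l and Asns.

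The normalised arrays had medians of 7.86 to 7.89 and values from 3.42 to 14.27. Normalisation makes arrays alike, so these values do not show depth of signal. For the same reason a shift common to all genes cannot be seen. DKO 2 scattered most around its group mean (SD 0.109 over all genes, against 0.0604 to 0.0907 on the other arrays). Hdac1 was 11.48, 11.49 and 11.52 in the controls and 11.20, 11.23 and 11.23 in DKO (-0.28, adjusted p = 0.0193), and Hdac2 did not pass (-0.04, adjusted p = 0.845). The Hdac1 call was lost without any 1 array other than DKO 2 (adjusted p = 0.0517 to 0.112), over all probes (0.0644) and with the replicate number as a block (0.0507). The position of these probes relative to the floxed exons is not known here, and whole buds also hold mesenchyme. The values of Hdac1 and Hdac2 may therefore not check the genotype. Markers of lung were present: Nkx2-1 of the epithelium was at 10.53 to 10.60 in the controls and Tbx4 of the mesenchyme at 11.37 to 11.42. Among 14 epithelial markers 8 fell and 0 rose (median -0.41). Their unlogged signals were also summed on each array, a sum in which the brightest markers weigh most. The log2 of this summed signal was 13.69 to 13.79 in the controls and 13.14 to 13.31 in DKO. In whole buds, fewer cells of a type and less RNA per cell cannot be told apart.

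Among the sensors and transcription factors, Xbp1 had the largest difference and Atf4 had none. Xbp1, the factor activated by splicing, was at 10.88, 10.85 and 10.92 in controls 1 to 3 and at 10.98, 11.10 and 11.12 in DKO 1 to 3. Every DKO value lay above every control value, with DKO 1 the closest to the controls. The change was 0.18 (SE 0.06, interval 0.06 to 0.31, adjusted p = 0.169), 1.14-fold, and did not pass. These probes do not separate spliced from unspliced Xbp1. Ern1, the kinase and nuclease that splices Xbp1, stood at 0.10 (interval -0.04 to 0.24), Atf6 at 0.06 and Eif2ak3, the kinase of the Atf4 branch, at 0.01.

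Atf4 itself was at 9.25, 9.29 and 9.26 in the controls and at 9.27, 9.31 and 9.23 in DKO. The groups overlapped fully, and the change was 0.00 (SE 0.05). The interval of -0.11 to 0.12 leaves room only for small changes of its mRNA over the whole bud. Changes in the epithelium alone were not measured, here or for the other members. Ddit3, which encodes the pro-apoptotic factor Chop and is induced by Atf4 under lasting stress, was at 8.34, 8.30 and 8.34 in the controls and at 8.35, 8.18 and 8.34 in DKO (-0.04, interval -0.17 to 0.10). The lowest Ddit3 value was that of DKO 2, the array on which 19 of the 38 members had their highest value. Atf5, a further factor translated under stress, stood at -0.04, and Nupr1, a small stress-induced chromatin protein, at 0.07. Of these 8 genes 0 passed and 6 had values above 0. Only 1, Xbp1, was higher at an unadjusted p under 0.05, against 6.00% of all genes. All 8 intervals lay within 1.25-fold, as for most genes tested.

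The chaperones and folding enzymes were the group with the most uniform direction: 14 of 14 lay above 0, 5 of 14 reached an unadjusted p under 0.05, and 0 of 14 passed. Of all genes 6.00% were higher at that unadjusted level. With array weights 6 of the 14 passed as higher (Creld2, Pdia4, Sdf2l1, Dnajc3, Dnajb11 and Pdia6, adjusted p = 0.00958 to 0.0434). That setting called 1006 of all 19938 genes higher, against 206 in the main fit. With an intensity trend 2 of the 14 passed (Creld2 and Pdia4, 0.0336 and 0.0382), and 337 of all genes were higher. The median of the 14 was 0.117. The count above 0 stayed 14 under the scaling alternatives and became 12 without control 2, where Dnajb9 and Pdia3 turned to values at or just under 0 (-0.01 and 0.00).

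Creld2, an ER-resident protein secreted under stress, had the lowest p of the group. It was at 9.83, 9.98 and 10.00 in the controls and at 10.12, 10.18 and 10.21 in DKO, so the groups did not overlap and control 1 was the lowest. The change was 0.24 (SE 0.06, interval 0.10 to 0.38, adjusted p = 0.101), 1.18-fold.

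The protein disulfide isomerases, which form and rearrange disulfide bonds, gave unequal values. Pdia4 was at 11.73, 11.74 and 11.88 in the controls and at 11.94, 11.99 and 12.01 in DKO (0.20, SE 0.06, adjusted p = 0.150). Its groups did not overlap, but a second and dimmer Pdia4 probe showed no difference (0.00, SE 0.08), so the probes disagree and the mean of both gave a change of 0.10. Pdia6 was at 10.72, 10.85 and 10.89 in the controls and at 11.00, 11.00 and 10.99 in DKO (0.18, SE 0.06, adjusted p = 0.200). The DKO values of Pdia6 were nearly equal (SD 0.004) and the controls spread more widely (SD 0.087). Pdia3, which works with the lectin chaperones, stood at 0.06 (interval -0.09 to 0.21).

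Dnajb11, Dnajc3 and Dnajb9 are ER co-chaperones of the Hsp70 family member Hspa5 (also called BiP). Dnajb11 was at 9.22, 9.33 and 9.40 in the controls and at 9.40, 9.55 and 9.55 in DKO (0.19, SE 0.07, adjusted p = 0.254). DKO 1 lay level with control 3 at 2 decimals and just above it before rounding, so the separation was slight. Dnajc3, which also inhibits Eif2ak3, was at 9.78, 9.87 and 9.88 in the controls and at 9.90, 9.97 and 10.11 in DKO (0.15, SE 0.07, unadjusted p = 0.0505, adjusted p = 0.390). Its DKO values lay above the controls, with DKO 3 the highest. The 2 probes of Dnajc3 held identical values and count as 1 measurement. Dnajb9 stood at 0.06 and its groups overlapped.

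Sdf2l1, which binds Hspa5 with Dnajb11, had the largest value of the group and also the largest scatter. It was at 9.59, 9.54 and 9.73 in the controls and at 9.66, 9.99 and 9.95 in DKO. DKO 2 and 3 were high while DKO 1 lay below control 3, so the groups overlapped. The change was 0.25 (SE 0.09, interval 0.04 to 0.46, adjusted p = 0.273), and it was 0.35 without DKO 1. Hspa5, the master chaperone and the usual readout of ER stress, was at 12.33, 12.42 and 12.53 in the controls and at 12.45, 12.65 and 12.60 in DKO (0.14, SE 0.07, interval -0.02 to 0.30, adjusted p = 0.482). Here too DKO 1 lay within the controls. Hyou1, a nucleotide exchange factor for Hspa5, stood at 0.09, and Manf, a secreted ER stress protein, at 0.07.

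The general chaperones were flatter. Hsp90b1 (Grp94) stood at 0.06, and the lectin chaperones Calr and Canx, which hold newly glycosylated proteins, at 0.08 and 0.05, with overlapping groups and intervals reaching at most 0.22. Rises above 0.22 lie outside the 95% intervals of these 3 genes.

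**Figure D2:**
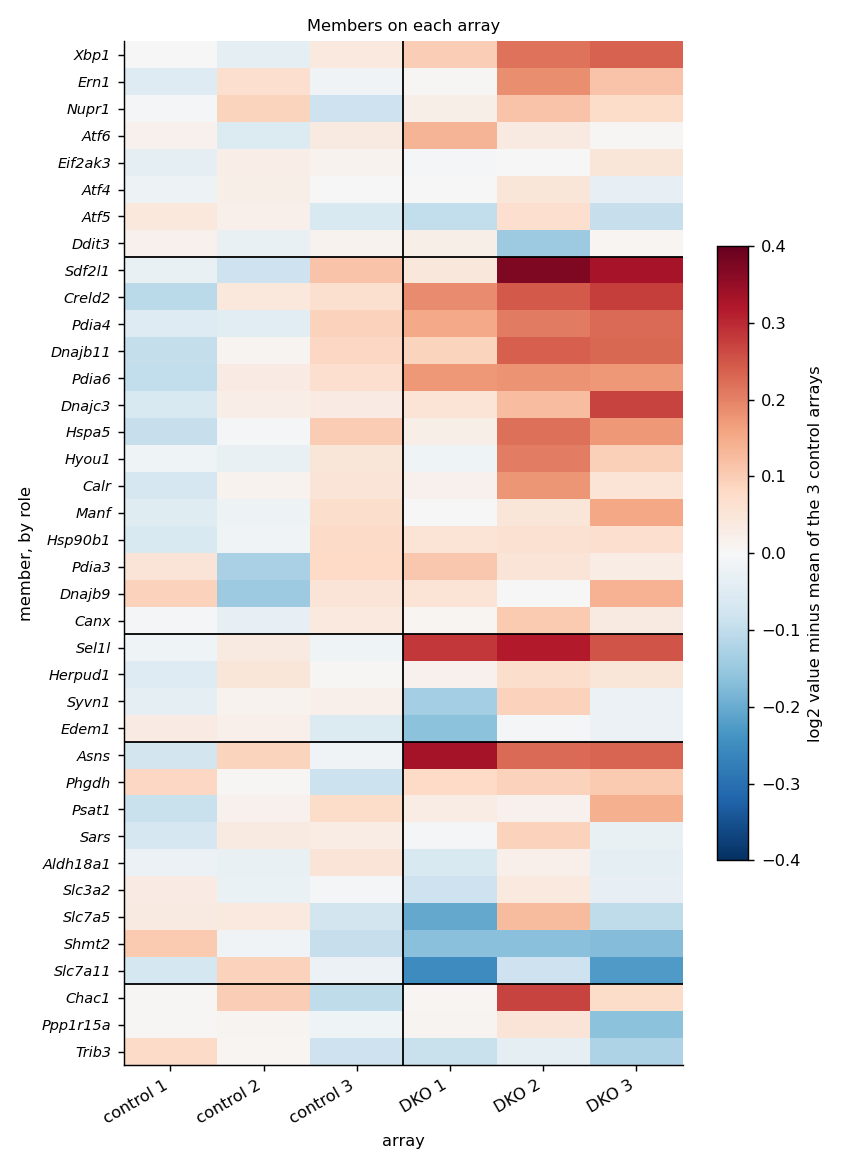
Value of each of the 38 members (rows, grouped by role) on each of the 6 arrays (columns), as the log2 value minus the mean of the 3 control arrays. Over the chaperones the median is 0.054 on DKO 1, 0.178 on DKO 2 and 0.163 on DKO 3, but Pdia3 is highest on DKO 1 and Dnajb9 is near 0 on DKO 2.

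The chaperones varied together from array to array as well as between the groups. Taken over the 14, the median deviation from the control mean was -0.057, -0.017 and 0.068 on controls 1 to 3 and 0.054, 0.178 and 0.163 on DKO 1 to 3. DKO 1 was thus below control 3 on this measure, and the groups overlapped. Control 1 had the lowest of the 6 values for 9 of the 14 and control 2 for the other 5, while DKO 2 had the highest for 7, DKO 3 for 5, and DKO 1 and control 3 for 1 each. The amino acid genes did not follow that order: their median deviations were -0.024, 0.016 and -0.015 on the controls and -0.060, 0.040 and -0.033 on DKO 1 to 3. Markers of other cell types differed on the same arrays. Of 8 liver markers 1 (Alb) rose and 0 fell, and all 8 lay above 0 with a median of 0.133. The log2 of their summed signal was 10.42, 10.50 and 10.39 in controls 1 to 3 and 10.70, 10.91 and 10.62 in DKO 1 to 3. Endothelial and cardiac markers lay above 0 as uniformly, with 10 of 10 (median 0.133, 0 passed, 2 at an unadjusted p under 0.05) and 9 of 9 (median 0.166, 1 passed). Of 7 erythroid markers 6 lay above 0 (median 0.106, 0 passed, 2 at an unadjusted p under 0.05), and of 6 mesothelial markers 5 did (median 0.172, 2 passed). Of all genes, 6.00% were higher and 6.83% lower at that unadjusted level. The log2 of the summed signal was higher in DKO without overlap for all 4 lists. It was 13.19 to 13.24 against 13.27 to 13.45 for endothelium and 11.64 to 11.77 against 11.90 to 12.22 for cardiac markers. For erythroid markers it was 14.31 to 14.42 against 14.45 to 14.48, and for mesothelium 11.88 to 11.92 against 12.06 to 12.13. The part of liver, endothelial, cardiac, erythroid or mesothelial cells in the chaperone values was not tested.

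The ER stress element is a sequence through which the unfolded protein response is known to act, and members that hold it are shown here because the chaperones lay to one side together. It is CCAAT followed after 9 bases by CCACG, where the factor NF-Y binds the first part and Atf6 or Xbp1 the second. It was searched on both strands in the 250 bases before each RefSeq start (build GRCm38.p6). Of the 38 members 34 had a promoter in the RefSeq table, all but Atf6, Hyou1, Manf and Slc7a5. The element was found for 8 of these 34 (23.5%), against 20 of 15614 measured genes with a promoter (0.128%). As the members were listed as genes of this response, that contrast says nothing about DKO against control. Among the members, 7 of 12 chaperones and folding enzymes held it, 1 of 4 degradation genes (Syvn1), and 0 of 7 sensors and regulators, 0 of 8 amino acid genes and 0 of 3 feedback genes. In the sequences below, read 5′ to 3′ on the strand of the gene, capitals mark both parts of each element, which reads CGTGG and then ATTGG where it lies on the reverse strand.
Creld2 (chr15:88819508-88819550, plus strand): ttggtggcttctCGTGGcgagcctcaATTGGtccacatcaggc
Pdia6 (chr12:17266479-17266521, plus strand): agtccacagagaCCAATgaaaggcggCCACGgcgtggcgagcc
Dnajc3 (chr14:118937815-118937857, plus strand): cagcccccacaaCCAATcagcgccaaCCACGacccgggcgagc
Hspa5 (chr2:34772013-34772055, plus strand): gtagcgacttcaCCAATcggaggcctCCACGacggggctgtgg
Calr (chr8:84847063-84847105, minus strand): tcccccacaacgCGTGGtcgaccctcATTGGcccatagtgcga
Canx (chr11:50325788-50325830, minus strand): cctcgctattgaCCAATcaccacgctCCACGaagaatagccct
Hsp90b1 (chr10:86705521-86705668, minus strand): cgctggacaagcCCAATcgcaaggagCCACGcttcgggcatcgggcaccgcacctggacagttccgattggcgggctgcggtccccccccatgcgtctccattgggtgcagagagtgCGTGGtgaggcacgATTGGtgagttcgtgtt
Syvn1 (chr19:6046520-6046562, plus strand): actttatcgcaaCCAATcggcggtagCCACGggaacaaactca

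The changes of these 8 genes ran from -0.02 (Syvn1) to 0.24 (Creld2) with a median of 0.11, and 7 of the 8 lay above 0. The 26 members with a promoter but no such element had a median of 0.05, with 16 of 26 above 0. Within the chaperones alone the order turned: the 7 with the element had a median of 0.14, and the 5 without it (Sdf2l1, Pdia4, Dnajb11, Pdia3 and Dnajb9) one of 0.19. The genes with the element lay on both sides of the median of all members (0.063), and Hsp90b1, with 2 copies, stood at 0.06. The element in the Creld2 promoter lies between Creld2 and the neighbouring gene Alg12, an ER mannosyltransferase that starts on the other strand, and the same 19 bases (chr15:88819520-88819538) fall within the 250 bases before both starts. Alg12 stood at 0.18 (SE 0.05, adjusted p = 0.161), and its groups did not overlap either. Of the 10 genes with the element that are on neither pathway list, 6 lay above 0, with a median of 0.02, and 0 passed. The second part alone, CCACG, which the full element contains, was found for 23 of 34 members (67.6%) and 37.9% of all promoters. The core TGACGTG was found for 1 of 34 members (Hspa5) against 2.14%. Of the amino acid response element only the form TGATGNAAT, where N is any base, was searched. That form was found for 1 of 34 (Nupr1) against 0.698%. Forms with another last base were not searched, so the other members may hold the element. A match describes letters in this window and shows no binding.

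**Figure D3:**
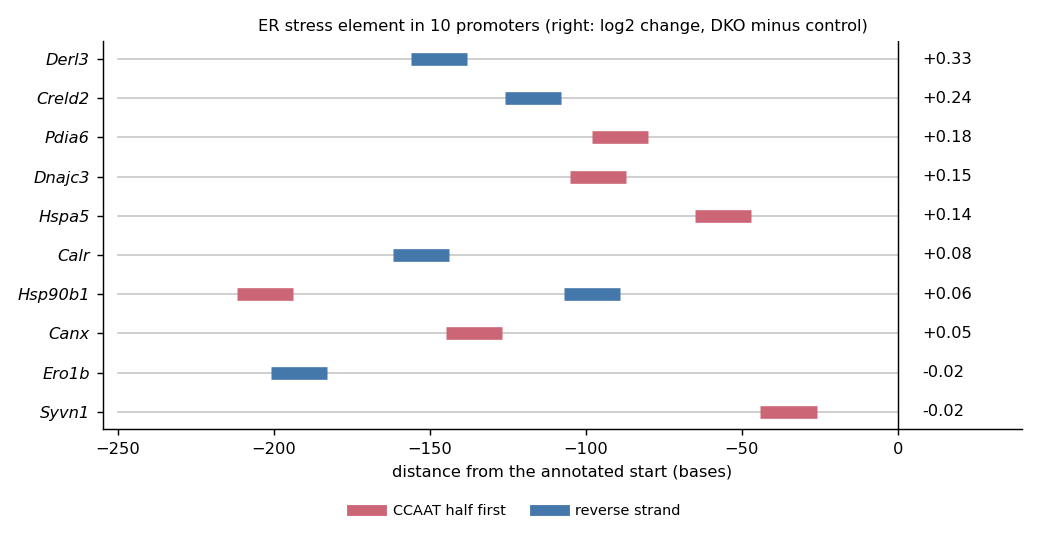
Position of the ER stress element in the 250 bases before the start of 8 members and of the related genes Derl3 and Ero1b, in bases from the annotated start, ordered by log2 change (DKO minus control, printed at the right). Red bars have CCAAT first on the strand of the gene and blue bars are on the reverse strand, and changes run from 0.33 for Derl3 to -0.02 for Syvn1 and Ero1b.

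Among the 4 members of ER-associated degradation, only Sel1l passed. Of 19 related degradation genes described below, 2 (Edem3 and Derl3) also rose and 0 fell, against 1.03% and 1.38% of all genes. The 19 had a median of 0.014, with 10 above 0 and 9 below. Their DKO values lay entirely above the controls for 4 and entirely below for 4. Sel1l, which links misfolded proteins to the ubiquitin ligase Syvn1 (Hrd1), was at 10.25, 10.31 and 10.25 in the controls and at 10.55, 10.59 and 10.52 in DKO. The groups were far apart relative to their spread (SD 0.031 and 0.032), and the interval of the change was 0.17 to 0.40. Syvn1, the ligase of the same complex, was at 9.29, 9.34 and 9.35 in the controls and at 9.19, 9.42 and 9.30 in DKO, so its DKO values lay on both sides of the controls (-0.02, interval -0.17 to 0.12). Herpud1, a membrane protein that helps assemble the complex, stood at 0.04 and Edem1, which marks glycoproteins by trimming mannose, at -0.06. The intervals of Sel1l and Syvn1 did not overlap, but the difference between the 2 genes was not tested. The Sel1l promoter held no full element and 1 copy of CCACG on the reverse strand, marked in capitals here with its surroundings (GRCm38.p6, strand of the gene).
Sel1l (chr12:91849303-91849331, minus strand): tgtcggtgaggcCGTGGtccaaccgggaa

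**Figure D4:**
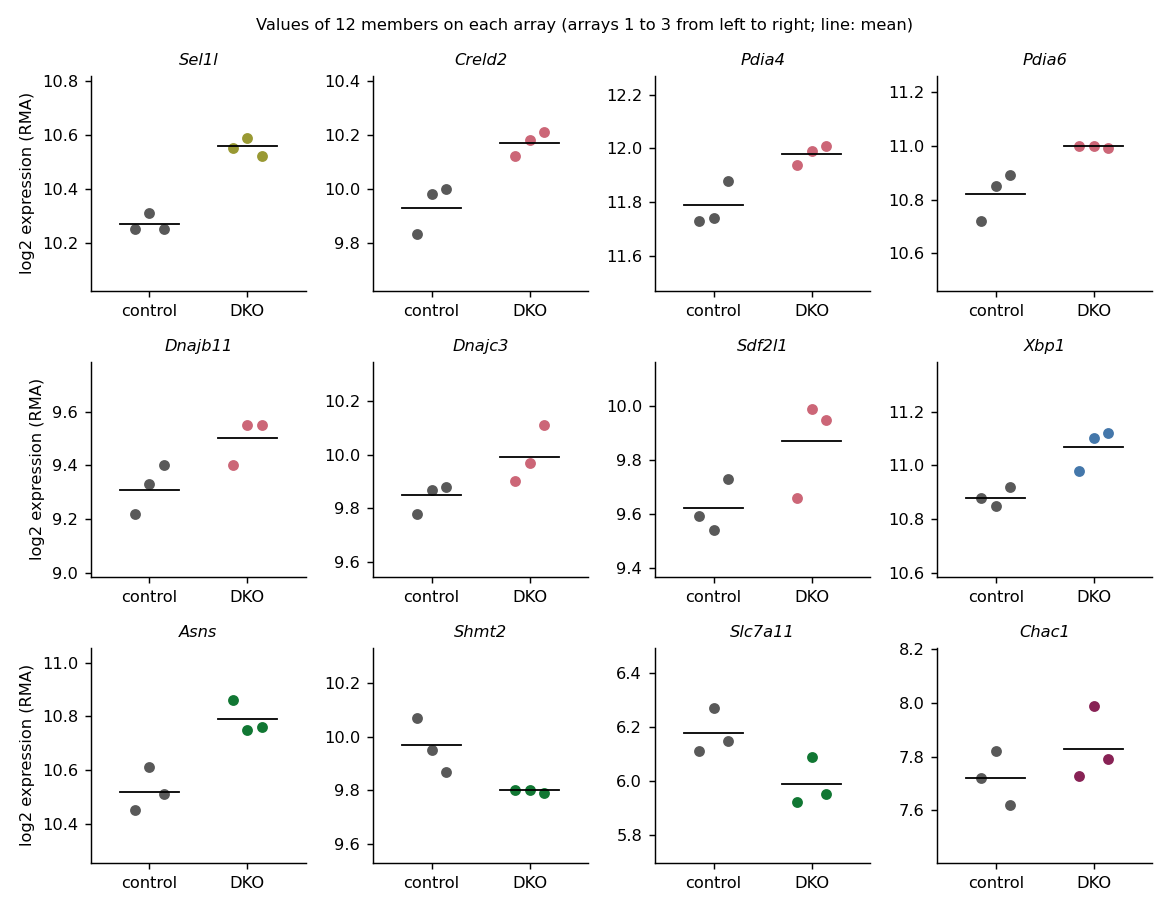
Log2 expression of 12 members on each array (vertical axes, each spanning 0.8 log2 units), with arrays 1 to 3 of control in grey and of DKO in colour, and the group mean as a line. Sel1l has 2 tight and separate groups, while Sdf2l1 and Chac1 overlap between the groups.

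Of the amino acid genes, Asns was high and Shmt2 and Slc7a11 low in DKO, and 0 of the 9 passed. At an unadjusted p under 0.05, 1 was higher and 2 lower, against 6.00% and 6.83% of all genes. Asns was at 10.45, 10.61 and 10.51 in the controls and at 10.86, 10.75 and 10.76 in DKO. Its groups did not overlap, and DKO 1 had the highest value, as for 1 of the 14 chaperones. The change was 0.27 (SE 0.06, interval 0.13 to 0.40), 1.20-fold. It passed with array weights (adjusted p = 0.0100), with an intensity trend (0.0144), without the dimmest 30% of genes (0.0380) and without DKO 2 (0.0417).

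Shmt2, the mitochondrial enzyme that turns serine into glycine and feeds folate metabolism, was at 10.07, 9.95 and 9.87 in the controls and at 9.80, 9.80 and 9.79 in DKO (-0.17, SE 0.06, adjusted p = 0.253). The DKO values were nearly equal and lay below all controls. Slc7a11, the cystine importer, was at 6.11, 6.27 and 6.15 in the controls and at 5.92, 6.09 and 5.95 in DKO (-0.19, SE 0.07, adjusted p = 0.249). It was among the dimmest 30% of genes, its groups were separate by a narrow margin between DKO 2 and control 1, and it passed as lower only with array weights (adjusted p = 0.0216).

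The serine synthesis genes Phgdh (0.09) and Psat1 (0.06), which act in the same pathway upstream of Shmt2, lay above 0 with overlapping groups. Slc7a5 and Slc3a2, the chains of the large neutral amino acid transporter, stood at -0.06 and -0.03. Slc7a5 was highest on DKO 2 (10.70) and lowest on DKO 1 (10.37), a wider range than in the controls (10.50 to 10.62). Aldh18a1, of proline synthesis, stood at -0.03 and Sars, the seryl-tRNA synthetase, at 0.02. Over the 9 genes, 4 lay above 0 and 5 below, with a median of -0.026.

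The feedback genes, which Atf4 and Ddit3 induce late in the response, showed no common direction: 1 of 3 lay above 0, and 0 passed, also at an unadjusted p under 0.05. Chac1, which breaks down glutathione, was at 7.72, 7.82 and 7.62 in the controls and at 7.73, 7.99 and 7.79 in DKO (0.12, SE 0.08, adjusted p = 0.650). The groups overlapped, with DKO 2 the highest array. Trib3, a pseudokinase that inhibits Atf4 and Ddit3, stood at -0.08, and Ppp1r15a (Gadd34), which restores translation by directing a phosphatase to eIF2 alpha, at -0.03. All 3 intervals lay within 1.25-fold, as for most genes tested.

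A wider list of 144 genes of the same pathways, of which 134 were measured, gave 3 rises and 0 falls. By comparison, 1.03% of all genes rose and 1.38% fell. The 3 that rose serve the handling of secretory proteins, as do many of the genes chosen for this list. Edem3, a mannosidase relative that acts in degradation beside Edem1, was at 9.63, 9.66 and 9.71 in the controls and at 10.18, 10.05 and 10.18 in DKO. The groups were far apart, and Edem3 rose 1.39-fold (0.47, SE 0.06, interval 0.35 to 0.60, adjusted p = 0.00338), while the interval of Edem1 ran from -0.20 to 0.07. Sec11c, a catalytic subunit of the signal peptidase, was at 8.10, 8.24 and 8.19 in the controls and at 8.60, 8.55 and 8.64 in DKO. Its groups were also well separated, and it rose 1.34-fold (0.42, SE 0.06, adjusted p = 0.00611). Edem3 and Sec11c passed in all 15 alternatives (adjusted p at most 0.0303 and 0.0445).

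Derl3, a membrane protein of the degradation channel, was at 7.89, 7.76 and 7.81 in the controls and at 8.16, 8.26 and 8.04 in DKO (0.33, SE 0.07, adjusted p = 0.0422). Its groups did not overlap, but it no longer passed when control 1, 2 or 3 was left out (adjusted p = 0.0994, 0.184 and 0.172), nor without DKO 1 (0.0998), over all probes (0.140), with the replicate number as a block (0.0748) and after a further quantile normalisation (0.0514). Derl3 holds the ER stress element on the reverse strand, shown with capitals as above.
Derl3 (chr10:75893230-75893272, plus strand): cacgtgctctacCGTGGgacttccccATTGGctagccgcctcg

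By group, 2 of 19 related degradation genes rose and 0 fell, and 1 of 24 genes of ER entry, signal peptide removal and glycosylation rose and 0 fell. The latter group had a median of 0.052 with 17 of 24 above 0. In 9 of its 24 genes the DKO values all lay above the controls and in 1 all below, against 8.36% and 10.4% of all genes. Of all genes, 6.00% were higher and 6.83% lower at an unadjusted p under 0.05. For the remaining lists, limma called 0 of 29 sensors and regulators (2 at that level), 0 of 29 folding enzymes (4) and 0 of 33 amino acid genes (4). The largest values there were 0.17 for Stc2, a secreted glycoprotein induced by Atf4 (adjusted p = 0.302), 0.19 for Fkbp2, an ER prolyl isomerase (0.137), and -0.22 for Lars, the leucyl-tRNA synthetase (0.0745). Of the 29 folding enzymes 16 lay above 0 and 13 below, with a median of 0.018. Their DKO values lay entirely above the controls for 3 and entirely below for 5. Over all 134 genes 72 lay above 0 and 62 below, with a median of 0.007.

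**Figure D5:**
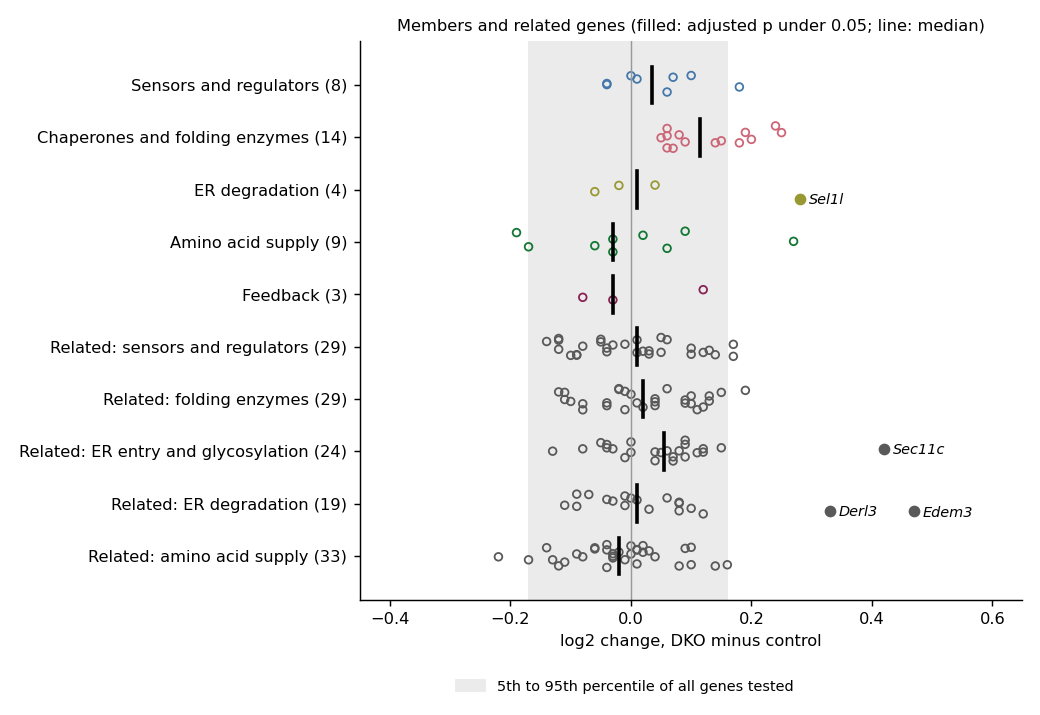
Log2 change (DKO minus control, horizontal axis) of each member and of each related gene, by group with the number of genes in parentheses. Points are genes, filled where the adjusted p was under 0.05, black lines are group medians and the grey band spans the 5th to 95th percentile of all genes tested, and the filled points are Sel1l, Sec11c, Derl3 and Edem3.

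Of the other cell types, smooth muscle markers fell (6 of 7, with 1 rise), and 1 of 10 mesenchymal markers rose. The log2 of the summed signal was 13.02 to 13.18 in the controls and 12.56 to 12.81 in DKO for smooth muscle. For mesenchyme it was 14.89 to 14.92 and 14.86 to 14.88. Limma called 0 of 8 leukocyte markers (4 at an unadjusted p under 0.05) and 0 of 5 neural markers (2). Of all genes, 6.00% were higher and 6.83% lower at that unadjusted level. The log2 of the summed leukocyte signal was up to 11.52 in the controls and 11.31 to 11.42 in DKO, without overlap. The neural values overlapped (10.19 to 10.40 and 10.16 to 10.37). Array values have no zero, so no marker can be called absent. The part of any of the cell types measured in the rises of Sel1l, Edem3, Sec11c and Derl3 was not tested.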

How the data were processed

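The authors hybridised biotin-labelled RNA, from 100 ng of total RNA per sample, to Affymetrix mouse gene arrays, per the labels' protocols. The deposited table gives 1 log2 value for each of 35556 probes on each of the 6 arrays. Per the submitters' processing notes the tools were oligo, RMA and limma. The genome build of the probes is not given in the sources used here, and the log base was taken from the method and from the range of the values. Of the probes 21789 name 1 gene and 1621 several, and 12146 are unnamed here. Names came from the platform annotation, updated by Entrez identifier against RefSeq (GRCm38.p6), and 5 names on the lists were updated through synonyms. For a gene with several probes the probe with the highest mean was used. Of the members, Dnajc3 and Pdia4 had 2 such probes each.

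Groups were compared with limma 3.58.1 in R 4.3.3 (lmFit, eBayes, two-sided, group as the only term) with Benjamini-Hochberg adjustment over 19938 genes, and the fit was tested on simulated data. The number of arrays limits the precision. The members, lists and tests were chosen with earlier results of these data known. All members are named, with values on each array for those past the threshold, those with an unadjusted p under 0.05 and the largest change of each role. Hspa5, Atf4, Ddit3, Syvn1, Dnajc3 and Alg12 were added after their values were seen. Related genes are named where they passed, or as the largest change of a list with no call. As alternatives, array weights, an intensity trend, robust settings, a block for the replicate number, a further quantile normalisation, centring arrays on their medians, leaving out the dimmest 30% of genes, the mean of all probes, adjustment over all probes, and leaving out each array were run.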

Additional observations from a re-analysis of the deposited data

How the results depend on the processing

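Of 569 values of single members under 15 alternatives, 534 kept their direction and their side of the threshold. With array weights 1006 genes were higher and 997 lower over the table, 9 members were higher and 1 lower, 17 members had an unadjusted p under 0.05, and 8 related genes were higher and 3 lower. An intensity trend gave 337 genes higher, 4 members higher and 1 related gene lower. Adjustment over all probes, with limma also fitted to all 35556 probes, gave 60 genes higher, 88 lower and 0 members higher. Without the dimmest 30% of genes 2 members were higher and 1 related gene was lower. Leaving out 1 array at a time gave 83 to 385 genes higher, 112 to 426 lower, 0 to 2 members higher, 6 to 13 members with an unadjusted p under 0.05 and 0 to 1 related genes lower. The highest of these counts of higher and lower genes came without DKO 2. The median change of the members stayed between 0.044 and 0.073 in all alternatives. The causes of these differences were not tested.

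Members near 0 changed sign. With array weights Atf4 and Sars turned to -0.02 each. Leaving out 1 array gave -0.02 to 0.02 for Atf4, -0.02 to 0.04 for Sars, -0.01 to 0.03 for Eif2ak3, -0.07 to 0.02 for Ddit3, -0.08 to 0.03 for Syvn1 and Ppp1r15a, -0.15 to 0.01 for Slc7a5, -0.06 to 0.00 for Slc3a2, -0.05 to 0.00 for Aldh18a1, 0.00 to 0.10 for Pdia3 and -0.01 to 0.11 for Dnajb9.

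Control and DKO share replicate numbers, but samples with the same number did not deviate together (correlations over genes of -0.064, 0.046 and 0.156). With the replicate block 175 genes were higher and 231 lower, and 1 member was higher and 0 lower. With it 12 members had an unadjusted p under 0.05, and 2 related genes were higher and 0 lower. The median change of the members was 0.063, as without it.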

Other observations

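Chaperones outside the ER did not lie above 0 as uniformly, and neither did the related folding enzymes (16 of 29 above 0, median 0.018). Of 22 measured cytosolic chaperones and heat shock factors limma called 0, against 1 at an unadjusted p under 0.05, and 8 lay above 0 and 14 below, with a median of -0.028. That 1 gene was Hspb1, a small heat shock protein, at 8.70, 8.67 and 8.59 in the controls and 8.90, 8.95 and 8.86 in DKO (0.25, SE 0.05, adjusted p = 0.0531). Of 13 mitochondrial chaperones and proteases limma called 0, also at an unadjusted p under 0.05, with changes of -0.09 to 0.08. Of 25 genes of transport between ER and Golgi limma called 0, against 3 at an unadjusted p under 0.05. Over all genes, 6.00% were higher and 6.83% lower at that level. The coat protein genes Sec23b (0.16) and Sar1b (0.14) lay above 0, and Sec24d below (-0.21, SE 0.05, adjusted p = 0.0735), with groups that did not overlap. The cytosolic, mitochondrial and transport lists were drawn up after the values of the members were seen. The difference between any of these lists and the ER chaperones was not tested.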
